A study of Mus musculus with 2 samples.

Results

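The genes described here are the ligands, receptors, extracellular antagonists, SMAD proteins, SMAD inhibitors and direct targets of the bone morphogenetic protein (BMP) and transforming growth factor beta (TGF-beta) pathways. Rows were taken by gene symbol, and 66 of the 55487 rows in the count table matched, each symbol on 1 row. Earlier results of these data were known when the genes were chosen. RNA was sequenced from MC3T3-E1 cells, an established osteoblast-like line derived from mouse calvaria, in 2 libraries. The PTH library came from cells given 10 nM parathyroid hormone, labelled 1 h, and the untreated library from cells without the hormone, also labelled 1 h. Both kinds of cells were grown in α-MEM with 10% serum, seeded at 25000 cells per cm2, and the hormone was given 24 h later. The labels name no genotype or clone, so both libraries stand for a single cell line under a single dose and time.

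BMP and TGF-beta ligands are secreted dimers that bind a pair of receptor types, type II and type I, on the cell surface. The type II receptor phosphorylates the type I receptor, which in turn phosphorylates receptor-regulated SMADs that enter the nucleus with Smad4. Smad1, Smad5 and Smad9 carry the BMP signal, and Smad2 and Smad3 carry the TGF-beta and activin signal. In bone, BMPs drive mesenchymal cells towards the osteoblast, while TGF-beta, stored in the matrix, governs recruitment and maturation of osteoblasts. PTH acts on these cells through a receptor coupled to cyclic AMP.

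The column totals were 70036872 counts in the PTH library and 66302211 in the untreated library, and the effective sizes used for scaling were 69127187 for the PTH and 67128638 for the untreated library. A row was compared when both libraries together held at least 20 counts, which 16408 rows and 49 of the 66 genes did. With 1 library per condition there is no replicate check, no p-value was computed, and an effect of PTH cannot be told apart from a difference between these cultures or libraries. The sum over 10 osteoblast markers was 63004 CPM, the count scaled by library size, in the PTH library and 59677 in the untreated library. Col1a1, Col1a2 and Sparc made up most of it, at 30282, 25601 and 6386 CPM in the PTH library. Of the rest, Spp1 was highest, at 430 CPM in the PTH library and 452 in the untreated library. Bglap and Phex were lowest, at 1.26 and 0.492 CPM in the PTH library and 0.849 and 0.417 in the untreated library. In the PTH library the sums were 729 CPM for chondrocyte, 15.6 for adipocyte, 0.940 for muscle, 2.72 for endothelial and 99.5 for macrophage and osteoclast markers. In the untreated library they were 474 CPM, 13.0, 2.88, 2.20 and 88.2 for the same lists in that order. The 20-count limit was met by 4 of 8 chondrocyte, 3 of 8 adipocyte, 2 of 8 muscle, 2 of 7 endothelial and 5 of 9 macrophage and osteoclast genes. In the PTH library Ctsk alone gave 93.3 CPM of the macrophage and osteoclast sum, and Cebpa alone 14.8 CPM of the adipocyte sum. Col2a1 and Sox9 made up most of the chondrocyte sum. Sox9, which is also active in osteochondral progenitors, was past the rule given below, with 10982 counts in the PTH library and 3264 in the untreated library, a ratio of 3.27, while Col2a1 had 38400 counts after PTH and 27597 untreated, a ratio of 1.35. The macrophage gene Cd14, with 173 counts after PTH and 14 untreated, and the muscle gene Acta1, with 28 after PTH and 124 untreated, were past it as well. So was the osteoblast marker Sp7, with 1974 counts after PTH and 4583 untreated, a ratio of 0.418. The osteoblast sum therefore does not speak for each of its markers. The defining genes Acan, Matn1, Col10a1, Adipoq, Plin1, Lpl, Myod1, Myf5, Pax7, Cdh5, Kdr, Ptprc, Adgre1 and Calcr were listed at 0 in both libraries, although the table holds more zeros than sampling alone would give, so a listed 0 is weak evidence of absence. The part of other cell types in the results below was not tested, and in bulk RNA fewer cells of a type and less RNA per cell cannot be told apart.

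The comparison asks which parts of these pathways differed in read number after 1 h of PTH. Each ratio below is the scaled count of the PTH library over that of the untreated library, followed in brackets by its 95% exact interval, which covers counting error only. A gene was taken as having more or fewer reads when its whole interval lay beyond 1.5-fold. By this rule 4 of the 49 compared genes had more reads in the PTH library, namely Smad3, Smad6, Tgfbr2 and Smurf2, and 2 had fewer, Tgfb2 and Gdf9. Over all compared rows 5.39% had more reads and 3.54% fewer, so the shares among these genes, 8.16% and 4.08%, lay near those of the table as a whole. The other 43 genes were neither.

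The median log2 ratio of the 49 genes was 0.09 against 0.00 over all compared rows, and 28 of the 49 (57.1%) had a ratio above 1, against 50.3% of all compared rows. Counting error was small for many of them, so the interval lay wholly above 1 for 22 genes (44.9%) and wholly below 1 for 15 (30.6%). Over all compared rows, many of which had fewer counts, these shares were 29.4% and 29.2%. Among protein-coding rows with at least 1000 counts they were 33.1% and 34.6%, beside 48.7% and 33.3% for the genes of that depth. Among protein-coding rows with at least 1000 counts, 3.15% had more reads and 1.48% fewer. Of the 49 genes, 39 fell in that class, 4 with more reads (10.3%) and 1 with fewer (2.56%). The share with more reads at this depth rests on 4 genes. Smurf2 among them was not past the rule with total-count, median-of-ratios or upper-quartile scaling. Because the genes were chosen with earlier results of these data known, the higher shares at this depth support nothing by themselves. An assumed variation between cultures mattered for the calls. With the interval widened for a coefficient of variation of 0.1 or of 0.2 per library, none of the 4 was still past the rule, and Gdf9 alone still had fewer reads. At 0.2, 2.89% of all rows had more reads and 1.63% fewer.

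**Figure D1:**
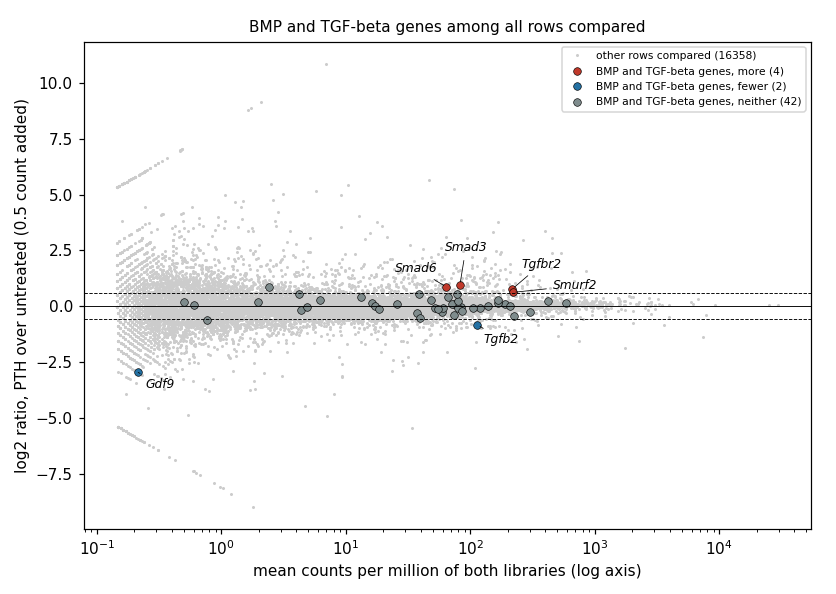
Log2 ratio of PTH over untreated, with 0.5 count added to each library, against the mean CPM of both libraries on a log axis, for the other compared rows in grey and 48 of the BMP and TGF-beta genes in colour; dashed lines mark 1.5-fold. Smad3, Smad6, Tgfbr2 and Smurf2 lie just above the upper line and Tgfb2 below the lower one, well inside the spread of all rows, and Gdf9 stands among the rows with the fewest counts.

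Among the BMP ligand genes, Bmp4 was the one with enough counts to compare. Bmp4, a BMP that osteoblasts secrete, had 13792 counts in the PTH library and 12310 in the untreated library, a ratio of 1.09 (1.06 to 1.11). Its level per exonic length was 88.8 RPKM (CPM per kilobase of exon) in the PTH library and 81.6 RPKM in the untreated library. Bmp2, Bmp5, Bmp6, Bmp7 and Bmp10 were listed at 0 in both libraries, and exons of the opposite strand overlap 46.7% of the exonic length of Bmp5. Bmp3, a BMP that opposes the others in bone, was listed at 17 counts in the PTH library and 0 in the untreated library, and Bmp15, an oocyte factor, at 0 in the PTH library and 10 in the untreated library. Listed zeros are uncertain, in 1 library or in both, because 598 rows of the table had 10 to 29 counts in either library and 0 in the other.

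The GDF ligands were also low, with Gdf11 as the exception. Gdf11, a relative of myostatin, had 1851 counts in the PTH library and 1682 in the untreated library, a ratio of 1.07 (1.00 to 1.14). Gdf15, a stress-responsive and distant member of the family, had 216 counts in the PTH library and 116 in the untreated library, a ratio of 1.81 (1.44 to 2.29). This ratio was close to that of Smad6, but its lower bound fell short of 1.5. Gdf9, known as an oocyte growth factor, had 3 counts in the PTH library and 26 in the untreated library, a ratio of 0.112 (0.0217 to 0.366). The call of Gdf9 rests on few reads in both libraries, at 0.0214 RPKM in the PTH library and 0.191 RPKM in the untreated library. Gdf5, a joint and cartilage factor, had 37 counts after PTH and 31 untreated, and Gdf6, which patterns joints and skull, had 42 after PTH and 62 untreated. Neither was past the rule, and 40.3% of the exonic length of Gdf5 lies opposite exons of the other strand. Gdf7, Gdf1 and Gdf3 had 7, 6 and 12 counts in the PTH library and 8, 7 and 0 in the untreated library, and Gdf2 and Gdf10 were listed at 0 in both. All exonic sequence of Gdf1 is shared with a gene on its own strand, which makes its few counts uncertain.

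The 3 TGF-beta ligand genes did not move alike. Tgfb2 had 5692 counts in the PTH library and 9822 in the untreated library, a ratio of 0.563 (0.545 to 0.581), and 93.5% of compared rows had a higher one. Tgfb3 had 18963 counts after PTH and 21898 untreated, a ratio of 0.841 (0.825 to 0.857). Tgfb1 had 5261 counts in the PTH library and 4745 in the untreated library, a ratio of 1.08 (1.04 to 1.12). Tgfb2 was thus past the rule, while Tgfb3 lay slightly below a ratio of 1 and Tgfb1 slightly above it. The ratio of Tgfb1 was 1.91 times that of Tgfb2 (1.82 to 2.01), and the ratio of Tgfb3 was 1.49 times that of Tgfb2 (1.44 to 1.55). Per exonic length Tgfb3 was the leading isoform, with 81.1 RPKM in the PTH library and 96.4 RPKM in the untreated library. The share of Tgfb2 in the summed RPKM of the 3 isoforms was 12.9% in the PTH library and 18.6% in the untreated library, and the sum itself was 110 RPKM in the PTH library and 136 RPKM in the untreated library.

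The latent TGF-beta binding proteins, which tether the inactive ligand to the matrix, had ratios close to 1. Ltbp1, the most abundant, had 42399 counts in the PTH library and 37608 in the untreated library, a ratio of 1.09 (1.08 to 1.11). Ltbp3 had a ratio of 1.11 (1.09 to 1.14), and Ltbp2 and Ltbp4 had ratios of 0.988 (0.952 to 1.02) and 0.961 (0.917 to 1.01). Inhba, which encodes the subunit of activin A, had 13274 counts in the PTH library and 17496 in the untreated library, a ratio of 0.737 (0.720 to 0.754). Its ratio was below 1 and short of the 1.5-fold limit. Inhbb, the subunit of activin B, had 284 counts after PTH and 310 untreated, and Inha, the inhibin alpha subunit, had 144 after PTH and 123 untreated. Neither interval excluded a ratio of 1, and Inhbc and Inhbe were listed at 0 in both libraries.

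**Figure D2:**
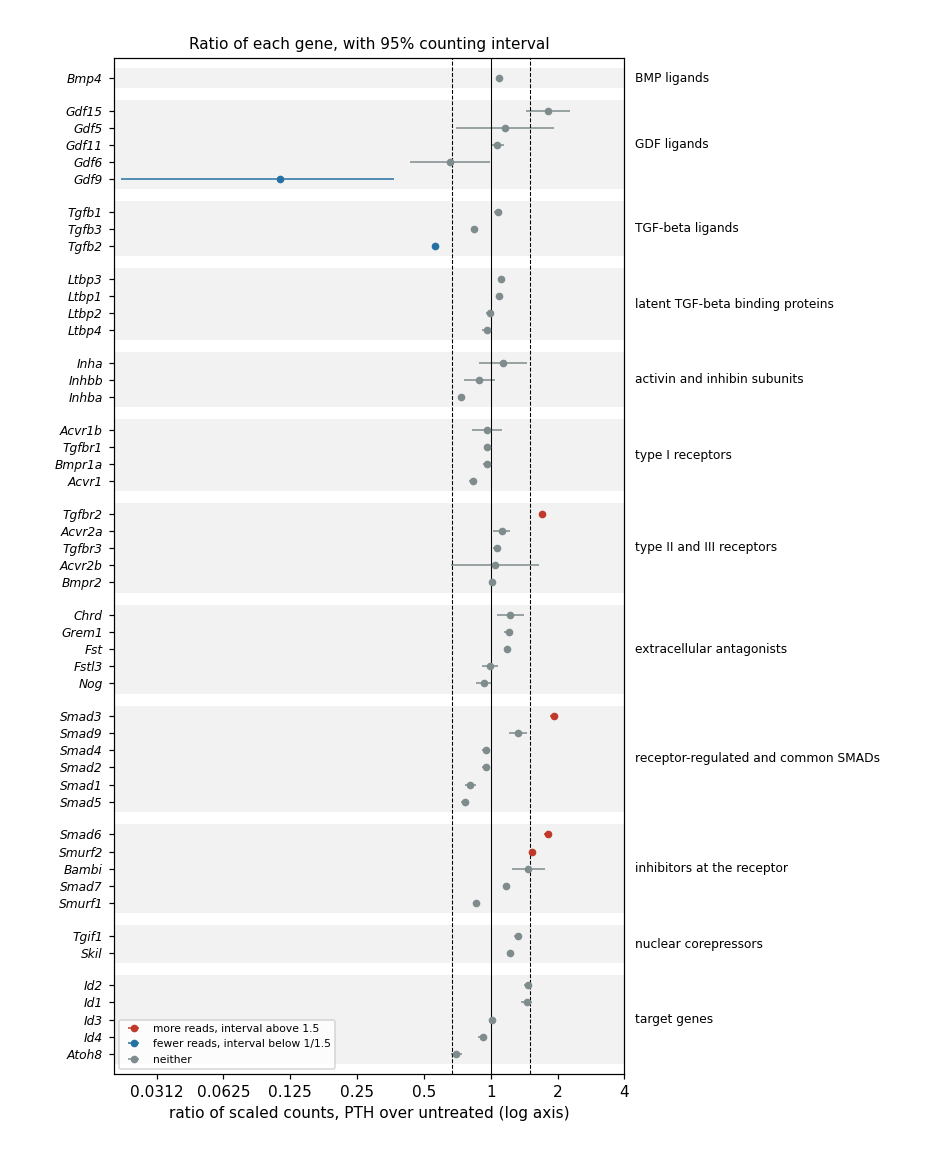
Ratio of scaled counts, PTH over untreated, on a log axis for 48 of the 49 compared genes, grouped by role, with bars for the 95% counting interval and dashed lines at 1.5-fold in either direction. Points in red (Smad3, Smad6, Tgfbr2, Smurf2) and blue (Tgfb2, Gdf9) have the whole interval beyond a dashed line, and the bars of many other genes are shorter than their point.

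Of the receptors, the type II receptor for TGF-beta stood out. Tgfbr2 had 18920 counts in the PTH library and 10791 in the untreated library, a ratio of 1.70 (1.66 to 1.74), and 91.0% of compared rows had a lower one. Its type I partner Tgfbr1 had 8157 counts in the PTH library and 8248 in the untreated library, a ratio of 0.960 (0.931 to 0.990). Between these libraries the ratio of Tgfbr2 was 1.77 times that of Tgfbr1 (1.71 to 1.84). At the level of RPKM, Tgfbr2 was at 33.4 in the PTH library and 19.6 in the untreated library, and Tgfbr1 at 18.1 in the PTH library and 18.8 in the untreated library. The co-receptor Tgfbr3, or betaglycan, which presents TGF-beta to the type II receptor, had 5082 counts after PTH and 4634 untreated, a ratio of 1.06 (1.02 to 1.11).

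None of the BMP and activin receptors was past the rule. Bmpr2, the BMP type II receptor, had 9591 counts in the PTH library and 9214 in the untreated library, a ratio of 1.01 (0.982 to 1.04). The ratio of Tgfbr2 was 1.68 times that of Bmpr2 (1.62 to 1.75). Bmpr1a, a BMP type I receptor, had 7165 counts after PTH and 7256 untreated, a ratio of 0.959 (0.928 to 0.991). Acvr1, the type I receptor whose activating mutations cause ectopic bone in humans, had 3698 counts in the PTH library and 4312 in the untreated library, a ratio of 0.833 (0.797 to 0.870). By interval, 3 of the 4 compared type I receptor genes lay below 1 and 3 of the 5 type II and III genes above it, while those of Acvr1b, Bmpr2 and Acvr2b included 1. Over all compared rows the interval lay below 1 for 29.2% and above it for 29.4%. With total-count scaling the interval of Tgfbr3 included 1 (0.997 to 1.08), so these counts depend on the scaling and rest on few genes. Acvr2a, an activin type II receptor, had 1180 counts after PTH and 1024 untreated. The low genes Acvr2b and Acvr1b had 43 and 332 counts in the PTH library and 40 and 335 in the untreated library, with ratios of 1.04 (0.663 to 1.65) for Acvr2b and 0.962 (0.824 to 1.12) for Acvr1b. Bmpr1b was listed at 12 counts in the PTH library and 0 in the untreated library, and Acvrl1 and Acvr1c at 0 in both.

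Extracellular antagonists bind the ligands before these reach a receptor. Fst, which encodes follistatin, an activin-binding protein, had 31382 counts in the PTH library and 25677 in the untreated library, a ratio of 1.19 (1.17 to 1.21). It was the most abundant antagonist, at 98.9 RPKM in the PTH library and 83.4 RPKM in the untreated library. Grem1, a BMP antagonist, had 3629 counts after PTH and 2927 untreated, a ratio of 1.20 (1.15 to 1.26). Chrd, which encodes the BMP antagonist chordin, had 474 counts in the PTH library and 375 in the untreated library, a ratio of 1.23 (1.07 to 1.41). The intervals of these 3 genes lay above 1 and within 1.5-fold. Nog, which encodes noggin, had 1229 counts in the PTH library and 1283 in the untreated library, a ratio of 0.930 (0.860 to 1.01), and Fstl3, a follistatin relative, had a ratio of 0.995 (0.916 to 1.08). Exons of the opposite strand overlap 47.3% of the exonic length of Fstl3.

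Among the SMADs, Smad3 had the highest ratio of all 49 genes. It had 7522 counts in the PTH library and 3782 in the untreated library, a ratio of 1.93 (1.86 to 2.01), and 7.27% of compared rows had a higher one. Smad2, the other SMAD of the TGF-beta arm, had 5344 counts in the PTH library and 5463 in the untreated library, a ratio of 0.950 (0.915 to 0.987). The ratio of Smad3 was 2.03 times that of Smad2 (1.93 to 2.15). Per exonic length, Smad3 made up 69.0% of the summed RPKM of Smad2 and Smad3 in the PTH library and 52.3% in the untreated library. The common partner Smad4 had 4077 counts after PTH and 4153 untreated, a ratio of 0.953 (0.913 to 0.996).

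The SMADs of the BMP arm had ratios on both sides of 1. Smad5 had 4435 counts in the PTH library and 5645 in the untreated library, a ratio of 0.763 (0.733 to 0.794). Smad1 had 2333 counts after PTH and 2796 untreated, a ratio of 0.810 (0.767 to 0.856). Smad9, the least abundant SMAD here, had 1042 counts in the PTH library and 764 in the untreated library, a ratio of 1.32 (1.21 to 1.46). None was past the rule, but the intervals of Smad9 and of the other two did not overlap, and the ratio of Smad9 was 1.74 times that of Smad5 (1.57 to 1.92). The 3 genes together came to 16.8 RPKM in the PTH library and 20.1 RPKM in the untreated library.

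Inhibitors that act at the receptor or on the SMADs were the group with the highest median log2 ratio, 0.56 over 5 genes. Smad6, an inhibitory SMAD that mainly blocks BMP signalling, had 5737 counts in the PTH library and 3078 in the untreated library, a ratio of 1.81 (1.73 to 1.89). Smad7, the inhibitory SMAD that also blocks TGF-beta receptors, had 5994 counts after PTH and 4943 untreated, a ratio of 1.18 (1.13 to 1.22). The ratio of Smad6 was 1.54 times that of Smad7 (1.45 to 1.63). At the level of RPKM, Smad6 was above Smad7 in the PTH library (25.9 against 19.2) and below it in the untreated library (14.3 against 16.3).

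The ubiquitin ligases Smurf1 and Smurf2, which mark SMADs and receptors for breakdown, had ratios on opposite sides of 1. Smurf2 had 18385 counts in the PTH library and 11626 in the untreated library, a ratio of 1.54 (1.5003 to 1.57). Its lower bound stood just above 1.5, and it was not past the rule with total-count, median-of-ratios or upper-quartile scaling, nor with TMM over unfiltered rows. Smurf1 had 5472 counts in the PTH library and 6171 in the untreated library, a ratio of 0.861 (0.830 to 0.893). The ratio of Smurf2 was 1.78 times that of Smurf1 (1.71 to 1.86). Bambi, a pseudoreceptor that lacks the kinase domain, had 345 counts after PTH and 227 untreated, a ratio of 1.48 (1.24 to 1.75). Within this group the intervals of Smad6, Smurf2, Bambi and Smad7 lay above 1 and that of Smurf1 below it, with Smad6 and Smurf2 past 1.5-fold.

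Both nuclear corepressor genes had ratios above 1 and neither was past the rule. Tgif1, a homeobox corepressor of Smad2 and Smad3, had 5178 counts in the PTH library and 3791 in the untreated library, a ratio of 1.33 (1.27 to 1.38). Skil, which encodes SnoN, had 12692 counts after PTH and 10082 untreated, a ratio of 1.22 (1.191 to 1.255).

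Id1 to Id4 and Atoh8, the genes grouped here as direct targets, did not share a direction. Id2 had 6394 counts in the PTH library and 4231 in the untreated library, a ratio of 1.47 (1.41 to 1.53), and Id1 had 3151 counts after PTH and 2109 untreated, a ratio of 1.45 (1.37 to 1.53). Id genes encode helix-loop-helix proteins that block differentiation factors, and both of these approached the 1.5-fold limit without clearing it. Id3, the most abundant of all 49 genes per length, had 14482 counts in the PTH library and 13841 in the untreated library, a ratio of 1.02 (0.993 to 1.04). Id4 had 3677 counts after PTH and 3875 untreated, a ratio of 0.921 (0.881 to 0.964). Id3 was at 117 RPKM in the PTH library and 115 RPKM in the untreated library, and Id1 at 39.3 RPKM in the PTH library and 27.1 RPKM in the untreated library. Atoh8, a helix-loop-helix gene activated by BMP in several cell types, had 2231 counts in the PTH library and 3097 in the untreated library, a ratio of 0.700 (0.662 to 0.739). Within the BMP target group the ratio of Id1 was therefore 2.07 times that of Atoh8 (1.92 to 2.24) and 1.43 times that of Id3 (1.34 to 1.52).

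**Figure D3:**
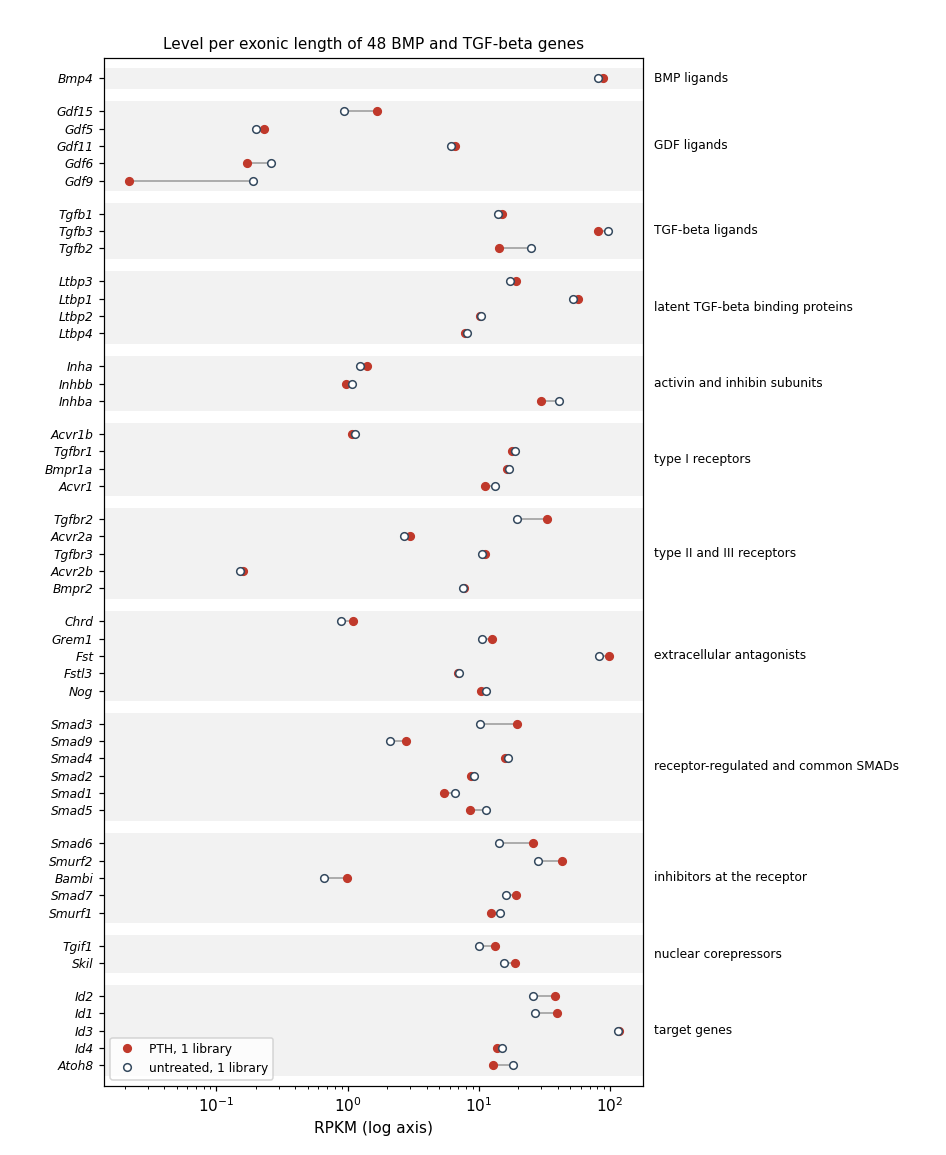
Level per exonic length (RPKM, log axis) of 48 of the 49 compared genes by role, with filled points for the PTH library, open points for the untreated library and a line joining both. Id3, Fst, Bmp4, Tgfb3 and Ltbp1 are the genes above 50 RPKM in both libraries, and the lines of Gdf9, Gdf15, Smad3, Smad6, Tgfbr2 and Tgfb2 are among the longest.

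In all, 14 pairs of related genes were compared in this way. They were chosen after their values were seen, and each interval of a ratio between ratios covers counting error only. Their intervals all excluded 1, which the choice of pairs made likely, so this count supports nothing. Other relatives had like ratios, such as Id1 (1.45) and Id2 (1.47), or Smad2 (0.950) and Smad4 (0.953).

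Smad3 and Smad6 are neighbours in the genome. In GENCODE M21 on GRCm38 (mm10), Smad3 lies on the reverse strand of chromosome 9 from 63646767 to 63757994, and Smad6 on the same strand from 63953076 to 64022059. Their start sites are 264065 bp apart. Of 11 other protein-coding genes compared within 500 kb of the ends of Smad3, Smad6 was the one with more reads and none had fewer. Among the 11 around Smad6, Smad3 was the one with more reads, which is the same pair seen from the other gene and adds nothing. Aagab, on the far side of Smad3, had 2003 counts in the PTH library and 1444 in the untreated library, a ratio of 1.35 (1.26 to 1.44), and Lctl, next to Smad6, had 149 counts after PTH and 150 untreated, a ratio of 0.965 (0.764 to 1.22). The neighbourhood was examined because both genes were past the rule. Tgfbr2 is also on chromosome 9, from 116084293 to 116175360 on the reverse strand. Its single compared protein-coding neighbour within 500 kb, Rbms3, had a ratio of 1.03 (0.992 to 1.08). Rbms3 reaches that window with its gene body, and its start site lies 1454553 bp from that of Tgfbr2. Tgfb2 lies on chromosome 1, from 186622792 to 186705989 on the reverse strand, and Rrp15 beside it had a ratio of 1.07 (1.02 to 1.13).

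**Figure D4:**
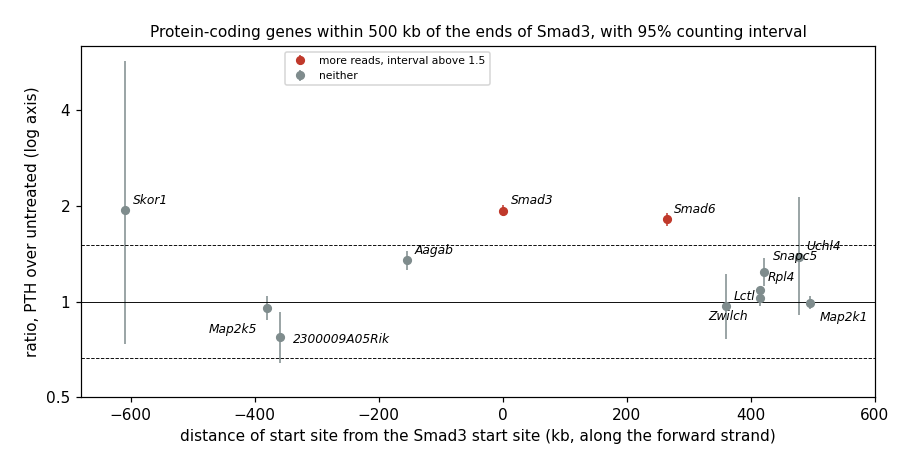
Ratio of PTH over untreated (log axis, bars for the 95% counting interval) of Smad3 and the 11 compared protein-coding genes within 500 kb of its ends, placed by the distance of their start site from that of Smad3 in kb. Smad3 and Smad6 are the points above the dashed 1.5-fold line with their whole interval, and Skor1, with 14 counts after PTH and 7 untreated, has a wide interval.

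The promoters of Smad3, Smad6, Tgfbr2 and Tgfb2 are printed because these well-counted genes were past the rule under every scaling tried. Each run holds 250 bases before and 10 bases after a RefSeq start site on GRCm38.p6, 5′ to 3′ on the gene's own strand, at chr9:63757985-63758244, chr9:64022050-64022309, chr9:116175354-116175613 and chr1:186705980-186706239, all on the reverse strand. Capitals mark the letters searched on both strands, which were TGACGTCA (the cyclic AMP response element), TGACG (its half-site), GTCTAGAC (the palindromic SMAD-binding sequence), CAGAC (a short SMAD-binding sequence) and GGCGCC (a GC-rich SMAD-binding sequence). The half-site lies within the full element. Lower-case letters matched none of these.
Smad3: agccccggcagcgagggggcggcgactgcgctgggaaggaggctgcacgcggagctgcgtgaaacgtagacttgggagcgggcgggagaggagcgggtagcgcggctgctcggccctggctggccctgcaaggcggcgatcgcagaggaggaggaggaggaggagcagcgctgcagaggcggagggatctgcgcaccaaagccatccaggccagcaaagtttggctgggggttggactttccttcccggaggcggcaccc
Smad6: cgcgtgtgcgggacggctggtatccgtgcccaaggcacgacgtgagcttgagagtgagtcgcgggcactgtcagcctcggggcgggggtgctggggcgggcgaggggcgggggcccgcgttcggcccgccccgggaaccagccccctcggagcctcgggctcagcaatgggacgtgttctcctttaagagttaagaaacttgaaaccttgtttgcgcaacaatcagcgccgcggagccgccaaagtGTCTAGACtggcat
Tgfbr2: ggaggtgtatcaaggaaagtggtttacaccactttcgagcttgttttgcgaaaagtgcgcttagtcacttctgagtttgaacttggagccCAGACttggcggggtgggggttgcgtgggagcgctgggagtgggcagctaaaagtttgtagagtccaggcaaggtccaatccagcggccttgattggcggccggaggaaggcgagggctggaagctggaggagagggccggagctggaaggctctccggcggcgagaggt
Tgfb2: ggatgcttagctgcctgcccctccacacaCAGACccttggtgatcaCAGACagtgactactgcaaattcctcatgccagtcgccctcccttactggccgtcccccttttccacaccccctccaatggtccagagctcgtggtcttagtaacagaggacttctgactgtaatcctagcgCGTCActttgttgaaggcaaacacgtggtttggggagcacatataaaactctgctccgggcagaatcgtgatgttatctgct

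Promoter windows of 250 bases before to 50 after the start were matched for 47 of the 66 genes, with 62 windows in all. The window of Smad6 holds the palindrome GTCTAGAC across its start site, beginning 4 bases before it. That sequence is in 0.213% of all 32851 windows and in no other of the 62. None of the windows of Smad3, Smad6, Tgfbr2 and Smurf2 holds TGACG or TGACGTCA, which are in 20.8% and 1.79% of all windows. The window of Tgfb2, the gene with fewer reads, holds the half-site TGACG on its reverse strand, 72 bases before the start. Among the matched genes 10 hold the half-site, and 1, Ltbp1, holds the full element. GGCGCC is in 25.8% of the 62 windows and 11.9% of all windows, in 14 of the matched genes that include Id2, Id4, Smad5, Smad9, Bmpr2 and Smurf2. CAGAC, at 50% of the 62 windows and 49.6% of all, was about as common here as elsewhere. A match is a run of letters, and no match says only that these letters are not in this window.

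Other genes of the pathways were read from a list of 68, of which 57 had enough counts to compare. Of these, 3 had more reads in the PTH library by the rule, 7 had fewer and 47 were neither, and their median log2 ratio was 0.02 against 0.00 over all rows. The share with fewer reads, 12.3%, compares with 3.54% over all rows, and the share with more reads, 5.26%, with 5.39%. The list was chosen with earlier values of some of its genes known, Ccn2, Sp7 and Msx2 among them, so its share with fewer reads supports nothing by itself.

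The genes with fewer reads were all on the lists of TGF-beta and BMP responsive genes. These lists were drawn up with some of the values known, so this placement supports nothing by itself. Ccn2, a matrix-associated growth factor that TGF-beta induces in many cells, had 51610 counts in the PTH library and 183304 in the untreated library, a ratio of 0.273 (0.271 to 0.276). Exons of the opposite strand overlap 23.2% of its exonic length. Klf10, also called TGF-beta inducible early gene, had 4393 counts after PTH and 8225 untreated, a ratio of 0.519 (0.4999 to 0.538), and Jag1, a Notch ligand, had a ratio of 0.593 (0.571 to 0.617). Ccn2, Klf10 and Jag1 had fewer reads in the PTH library, and Tgfbr2 and Smad3 had more. Whether TGF-beta governed any of them in these cells was not tested. In the opposite direction Tsc22d1, named for its induction by TGF-beta, had 37074 counts in the PTH library and 10570 in the untreated library, a ratio of 3.41 (3.33 to 3.48). Of the 13 compared TGF-beta responsive genes 4 had fewer reads and 1 more, against 3.54% and 5.39% of all compared rows. The other 8 were neither, including Tgfbi at 1.21 (1.12 to 1.31), Snai1 at 1.12 (1.10 to 1.14) and Postn at 1.00 (0.991 to 1.01).

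BMP responsive genes of the osteoblast lineage were mixed as well. Sp7, the osterix gene, had 1974 counts in the PTH library and 4583 in the untreated library, a ratio of 0.418 (0.397 to 0.441). Msx2 and Dlx3, both homeobox genes, had 292 and 434 counts in the PTH library and 664 and 792 in the untreated library, with ratios of 0.427 (0.371 to 0.491) and 0.532 (0.472 to 0.599). Dlx5, a homeobox gene upstream of Sp7, had 2816 counts after PTH and 2171 untreated, a ratio of 1.26 (1.19 to 1.33), and Msx1 had a ratio of 1.61 (1.41 to 1.83). In all 3 of 10 compared genes had fewer reads and none more, and Runx2 was at 1.03 (1.01 to 1.06). Over all compared rows 3.54% had fewer reads and 5.39% more. The values of Sp7 and Msx2 were known when the list was chosen, so the 3 of 10 supports nothing by itself.

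Outside the responsive genes, the rule found more reads for a TGF-beta anchor and a secreted antagonist. Lrrc32, which encodes GARP, a cell-surface protein that holds latent TGF-beta, had 1375 counts in the PTH library and 267 in the untreated library, a ratio of 5.00 (4.38 to 5.72). This was the highest ratio of the 57 genes. Sostdc1, an antagonist of BMP and Wnt ligands, had 72 counts in the PTH library and 24 in the untreated library, a ratio of 2.91 (1.81 to 4.84). Thbs1, which encodes thrombospondin 1, an activator of latent TGF-beta, had 462025 counts after PTH and 595135 untreated, a ratio of 0.754 (0.751 to 0.757), within the 1.5-fold limit. None of the 13 intracellular regulators was past the rule. Pmepa1, a TGF-beta induced inhibitor, was highest among them at 1.31 (1.26 to 1.35) and Tab1, an adaptor of the kinase Map3k7, lowest at 0.735 (0.681 to 0.794).

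**Figure D5:**
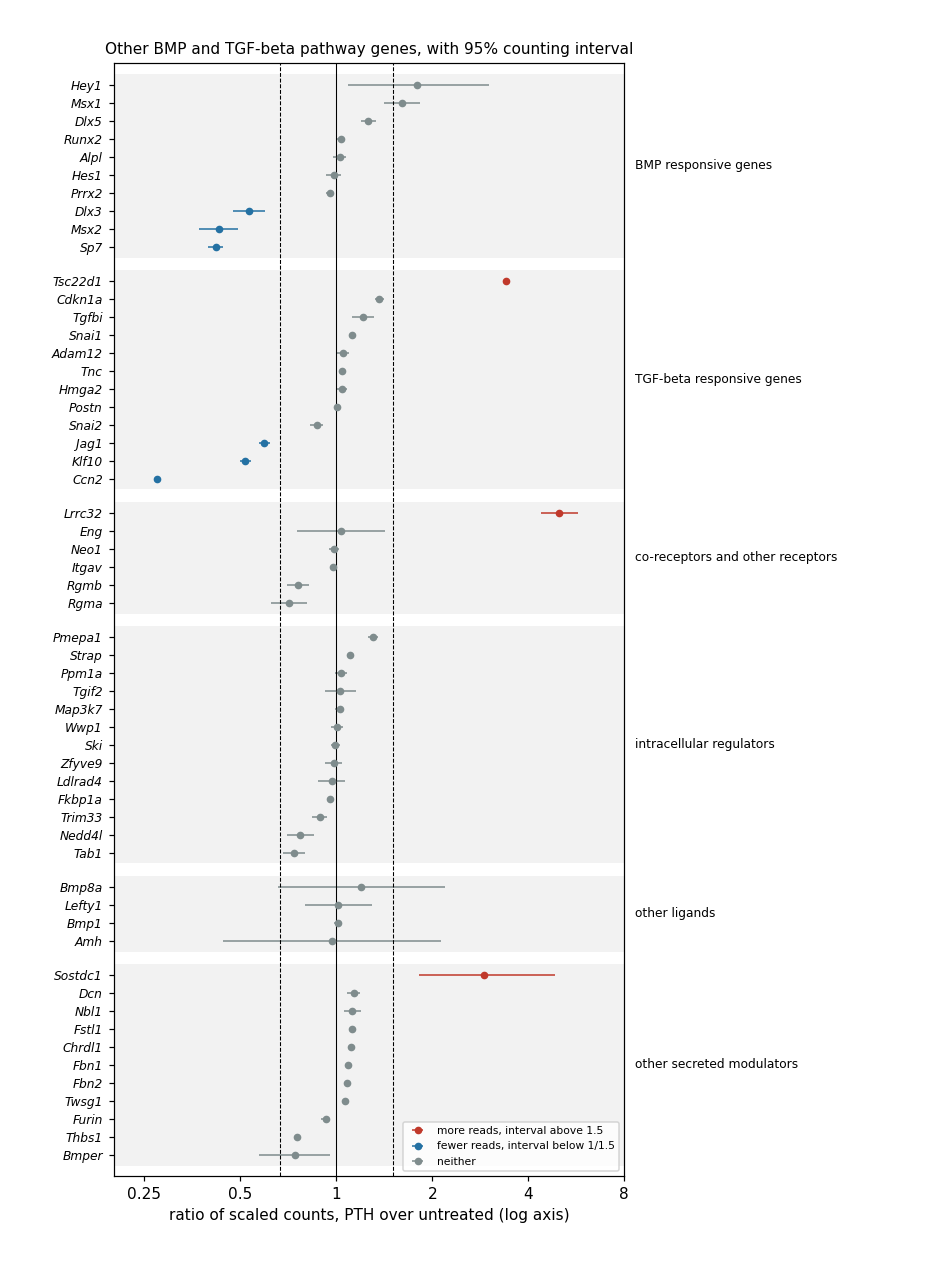
Ratio of scaled counts, PTH over untreated, on a log axis for 56 of the 57 other pathway genes compared, grouped by list, with bars for the 95% counting interval and dashed lines at 1.5-fold in either direction. Lrrc32, Tsc22d1 and Sostdc1 lie to the right of the lines with their whole interval, and Ccn2, Sp7, Msx2, Klf10, Dlx3 and Jag1 to the left.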

How the data were processed

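The authors deposited 1 table of unnormalised whole-number counts, genes in rows and libraries in 2 columns. Per the submitters' processing notes, HISAT2 and the mm10 build were used. The counter, annotation and strand setting: not given in the sources used here. Gene positions, exonic length and exon overlap came from GENCODE M21 (GRCm38), which holds all 66 genes. Rows that share exons are marked where the overlap is 20% or more.

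Counts were scaled by TMM effective library sizes (edgeR 4.0.16, R 4.3.3) over the 16408 rows with 20 or more counts. With 1 library per condition there are no residual degrees of freedom, and no test was fitted. The ratio and its 95% Clopper-Pearson interval were computed with scipy 1.17.1, tested on simulated data, and cover counting error only. Since PCR copies reads, the counting error may be wider than that. A 0 that comes from sampling alone allows up to 3 counts, 0.0434 CPM in the PTH library and 0.0447 in the untreated library. The table also holds other zeros, with 598 rows at 0 in either library and 10 to 29 counts in the other, so a listed 0 need not be bounded by 3 counts. Log2 ratios had 0.5 count added. Alternatives used total counts, DESeq2 1.42.0 size factors, upper-quartile factors, other filters and fold limits, and widened intervals.

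The genes, lists and tests were chosen with earlier results of these data known. Genes were named in full when past the rule, when among the 3 of their group with the bound farthest from 1 or the 2 with most counts, or when listed beforehand, such as Bmp4, Nog and Id1. Results for 2 of the genes counted are not reported here.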

Additional observations from a re-analysis of the deposited data

How the results depend on the processing

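Each count past the rule was recomputed under 11 other settings. The scalings kept Smad3, Smad6 and Tgfbr2 with more reads and Tgfb2 and Gdf9 with fewer, while Smurf2 was lost with total counts, median-of-ratios and upper-quartile factors, leaving 3. Without a filter Smurf2 was lost as well, and Bmp3, Bmpr1b, Gdf3 and Bmp15, each listed at 0 in either library, were past the rule, for counts of 6 and 3. With a filter of 100 counts 1 gene, Tgfb2, had fewer reads. With the fold limit lowered from 1.5 to 5/4, 8 genes had more reads and 5 fewer, and 6 of the other pathway genes had more. With a fold limit of 2, no gene had more reads and 1 (Gdf9) fewer, and 4 of the other pathway genes had fewer. With the interval widened for a coefficient of variation of 0.1, no gene had more reads and 1 fewer, and 4 of the other pathway genes had fewer. At 0.2 the figures were 0, 1 and 1. Apart from the widening of 0.2, the share of all compared rows past the rule was not computed for these other settings. The counts at those settings therefore describe single genes and say nothing about the genes as a group. Of the other pathway genes, Lrrc32 and Tsc22d1 with more reads and Ccn2 with fewer were still past the rule at 0.2. The median log2 ratio of the genes stayed between 0.05 and 0.10. No paired analysis was possible because each condition has 1 library. For the well-counted genes the calls turned on the assumed variation between cultures, whose size is unknown. Depth limits Gdf9, Gdf5, Gdf6 and Acvr2b.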
